A study of Mus musculus with 12 samples.

Results

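The complement genes measured here are C1ra, C4b, C3, Cfb, Cfp, C3ar1, C5ar1, Cd55 and Cd59a, chosen by gene symbol from the table of counted reads, and all 9 were found among its 14533 genes. They were compared in RNA scraped from the dorsal epidermis of 12 mice, with 6 animals of each genotype, WT and Pparg-/-epi, and 1 library for each animal. All mice were C57BL/6 and carried floxed Pparg on both alleles. Pparg-/-epi mice carried in addition 1 copy of a Cre recombinase driven by the keratin 14 promoter, and WT mice, described as sibling controls, lacked Cre. The mice were untreated and 8 to 13 weeks old by the labels (the study's methods and supplement give other ages for some of them), with 3 female and 3 male WT mice and 4 female and 2 male Pparg-/-epi mice. Keratin 14 is a keratin of basal keratinocytes, so Cre acts in keratinocytes, whereas the scrapings reached the superficial dermis and held RNA of other cells as well. In such bulk samples, fewer cells of a type and less RNA per cell cannot be told apart.

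Complement is a cascade of plasma and tissue proteins that marks surfaces for removal, attracts leukocytes and can perforate membranes. The classical pathway starts with the C1 complex, whose protease C1r leads to cleavage of C4, and the alternative pathway runs through factor B and properdin. Both converge on C3, and the small fragments C3a and C5a released on the way act on receptors of myeloid cells. Cells of the body guard their own surface with membrane proteins, among them CD55, which speeds the decay of the convertases, and CD59, which blocks assembly of the membrane attack complex. Keratinocytes, fibroblasts and macrophages are all known local sources of complement proteins in skin.

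In Pparg-/-epi mice the transcripts of both membrane regulators fell, Cd59a to 22.7 ± 3.56 CPM (read counts scaled to a common library total, mean ± SD, n = 6) from 72.5 ± 22.3 CPM in WT mice, and Cd55 to 57.8 ± 17.9 CPM from 131 ± 39.1 CPM. The 5 activation proteins and both receptors for the complement fragments did not pass the test, although Cfb and C3ar1 lay about as far from WT on the log2 scale as the regulators did. The term altered is used for genes whose log2 fold change was 0.6 or more in size with an adjusted p under 0.05. The p comes from edgeR's quasi-likelihood test, adjusted by Benjamini-Hochberg over all genes, except where the text names another test, and SE is the standard error of a log2 fold change. Of the 9 complement genes, 2 were altered, both lower. Over all genes, 10.3% were altered in either direction, with 5.08% lower and 5.19% higher. The median log2 fold change was 0.62 over the 9 genes and -0.01 over all genes, and 7 of the 9 had a log2 fold change above 0.

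Total counts ran from 10120840 to 16947632 in WT and from 11272135 to 18851255 in Pparg-/-epi mice, so that 1 count was worth 0.0520 to 0.107 CPM. Pparg itself had 5 to 269 counts in WT libraries, the highest in replicate 2, and 16 to 107 in Pparg-/-epi libraries. These counts did not separate the genotypes, and they were summed over the whole gene, whereas Cre removes only some exons. The RNA integrity number (RIN) ran from 5.9 to 8.6 in WT and from 5.7 to 8.6 in Pparg-/-epi mice. Its median was lower in WT (6.65) than in Pparg-/-epi mice (7.70). One library, WT replicate 2, stood apart from the other WT libraries in many complement genes, and results that rest on it are given with and without it. Breeding numbers, part of each mouse's name, were uneven between the groups. In the later numbers (225 and 226) were 4 of the 6 WT and 2 of the 6 Pparg-/-epi mice. The later WT mice were all of number 226 and the later Pparg-/-epi mice of number 225. Genotype and breeding number were thus partly confounded. Comparing within the earlier or the later numbers, or using this block as a covariate, does not fully separate them. Breeding number 222 was the only one with mice of both groups, WT replicate 2 and Pparg-/-epi replicate 10. These mice also differed in sex, female and male, and in RIN, 8.6 and 7.7, so they are not a matched pair. In that order they had 150 and 13.8 CPM of C3, 17.5 and 8.23 CPM of Cfb, 86.3 and 65.4 CPM of Cd55 and 40.1 and 23.5 CPM of Cd59a.

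**Figure D1:**
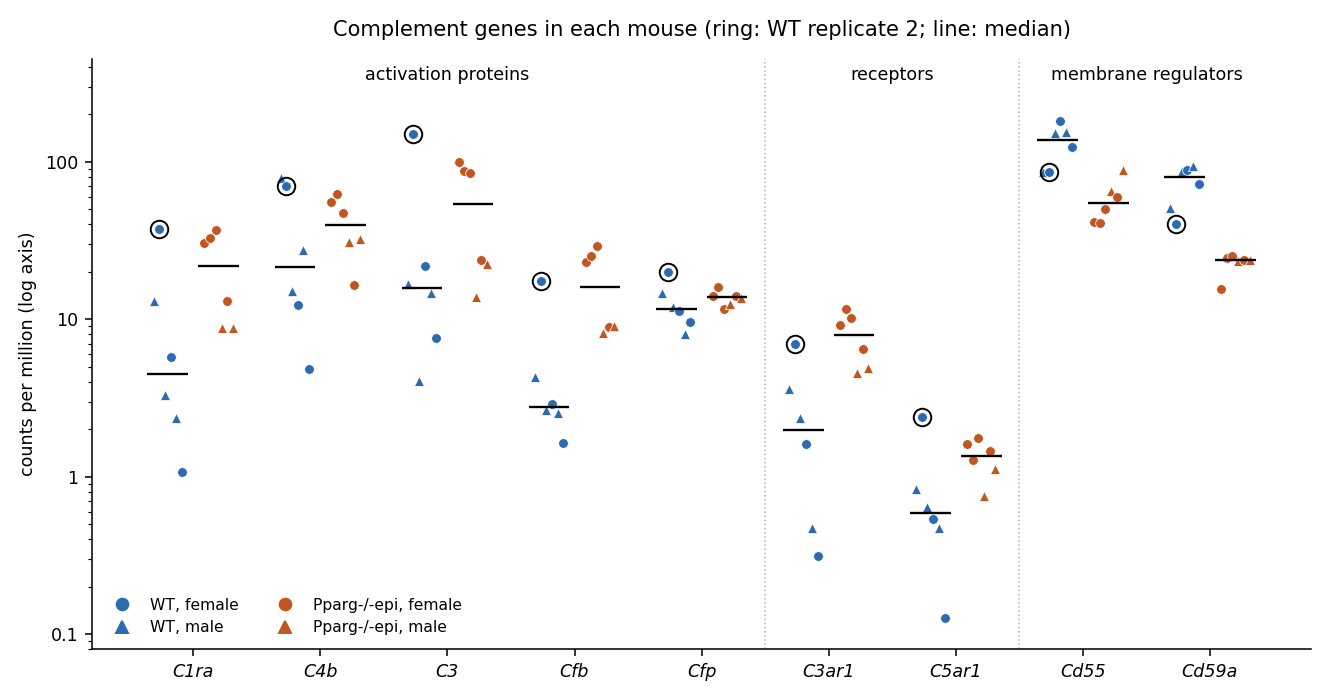
CPM of the 9 complement genes in each mouse, on a log axis. Circles are female and triangles male mice, black lines are group medians, and rings mark WT replicate 2, which lies above every other WT mouse in C1ra, C3, Cfb, Cfp, C3ar1 and C5ar1, whereas all 6 Pparg-/-epi mice lie below every WT mouse in Cd59a.

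The sequences upstream of the genes are shown for both regulators that fell and for C3 and C3ar1 as members of the other roles, since the promoter of a gene is where factors such as PPARγ could act. PPARγ binds DNA together with RXR at paired sites. Promoters of 7 of the 9 genes were found in RefSeq (GRCm38.p6, the assembly of mm10), and the 250 bases before the RefSeq transcription start are printed 5′ to 3′ on the strand of the gene. Capitals mark matches on either strand to any of 9 motifs.
Cd55 promoter, chr1:130462745-130462994, minus strand: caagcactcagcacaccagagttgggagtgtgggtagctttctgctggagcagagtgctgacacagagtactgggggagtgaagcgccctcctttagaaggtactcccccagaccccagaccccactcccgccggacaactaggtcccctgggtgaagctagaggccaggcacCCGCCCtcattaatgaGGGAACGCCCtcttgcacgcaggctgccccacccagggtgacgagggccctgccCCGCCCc
Cd59a promoter, chr2:104095551-104095800, plus strand: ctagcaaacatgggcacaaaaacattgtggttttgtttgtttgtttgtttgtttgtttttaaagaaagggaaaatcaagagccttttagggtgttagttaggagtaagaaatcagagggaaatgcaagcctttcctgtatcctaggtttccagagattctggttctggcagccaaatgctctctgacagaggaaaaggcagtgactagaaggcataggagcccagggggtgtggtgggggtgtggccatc
C3 promoter, chr17:57228137-57228386, minus strand: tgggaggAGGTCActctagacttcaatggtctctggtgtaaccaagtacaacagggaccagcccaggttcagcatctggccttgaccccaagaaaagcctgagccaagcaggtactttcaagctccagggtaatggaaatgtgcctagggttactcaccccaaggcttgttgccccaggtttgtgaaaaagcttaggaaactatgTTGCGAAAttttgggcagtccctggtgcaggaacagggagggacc
C3ar1 promoter, chr6:122856158-122856407, minus strand: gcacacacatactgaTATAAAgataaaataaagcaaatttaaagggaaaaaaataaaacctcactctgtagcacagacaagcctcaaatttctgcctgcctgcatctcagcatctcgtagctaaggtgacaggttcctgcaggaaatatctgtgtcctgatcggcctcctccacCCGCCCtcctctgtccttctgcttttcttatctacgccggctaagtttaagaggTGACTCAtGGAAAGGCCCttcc

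The motifs searched, each on both strands, were the PPAR response element AGGTCANAGGTCA, the single nuclear receptor site AGGTCA that it repeats, the NF-kB motif GGGNNTTNCC, the STAT motif TTCNNNGAA, the C/EBP motif TTGCNNAA, the E-box CACGTG, the GC box GGGCGG, the AP-1 motif TGANTCA and the TATA box TATAAA. Among 32851 mouse promoters of the same length, they were found in 0.0335%, 14.0%, 4.11%, 7.02%, 9.56%, 6.02%, 32.7%, 6.75% and 12.4%, in that order. The Cd55 promoter held 2 GC boxes, from -77 to -72 and from -7 to -2 counted from the start site, and the NF-kB letters from -61 to -52. In the C3 promoter the single receptor site lay from -243 to -238 and the C/EBP letters from -45 to -38. The C3ar1 promoter held the TATA letters from -235 to -230, a GC box from -76 to -71, the AP-1 letters from -22 to -16 and the NF-kB letters from -14 to -5. No motif of the list was in the 250 bases of Cd59a, and the paired PPAR element was in none of the 7 promoters. A match describes letters in this window and not a bound site. The exact letters of the paired element are so rare (0.0335% of promoters) that their absence here is uninformative.

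Cd59a encodes the membrane-anchored CD59a, which stops the terminal components from forming a pore. The gene lies on chromosome 2 from 104095801 to 104115410 of mm10, on the plus strand, with 5 merged exons. Its level in WT mice was 40.1 CPM at the lowest, 79.8 at the median and 94.5 at the highest. In Pparg-/-epi mice the lowest was 15.6 CPM, the median 23.8 and the highest 25.2. No Pparg-/-epi value reached the lowest WT value, which was the case for 1 of the 9 complement genes. The groups did not overlap in 7.90% of all genes. Cd59a fell, with a log2 fold change of -1.67 (SE 0.21, 95% interval -2.13 to -1.22, adjusted p = 0.000380). The groups were also apart within each sex and within the earlier and the later breeding numbers. The later numbers were 226 in WT and 225 in Pparg-/-epi mice. Female mice had 40.1 to 89.3 CPM in WT and 15.6 to 25.2 CPM in Pparg-/-epi, and male mice 51.2 to 94.5 CPM and 23.5 to 23.8 CPM. Within the earlier breeding numbers the values were 40.1 to 51.2 CPM in 2 WT mice and 15.6 to 25.2 CPM in 4 Pparg-/-epi mice (log2 fold change -1.03, adjusted p = 0.0935), and within the later ones 72.3 to 94.5 CPM in 4 WT and 23.8 to 23.9 CPM in 2 Pparg-/-epi mice (log2 fold change -1.86, adjusted p = 0.000773). All 4 WT mice of the later numbers were above both WT mice of the earlier ones. The difference between the 2 log2 fold changes, later minus earlier, did not pass the test (-0.80, SE 0.27, adjusted p = 0.632). Few stretches of Cd59a, 1.66%, are shared with its near copy Cd59b.

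Cd55 encodes decay-accelerating factor, which takes apart the convertases that cleave C3 and C5. It lies on chromosome 1 from 130439030 to 130462740 on the minus strand. WT mice had 86.3 CPM at the lowest, a median of 139 CPM and 182 CPM at the highest. Pparg-/-epi mice had 40.9 CPM at the lowest, a median of 55.0 CPM and 88.5 CPM at the highest. In 5 of the 6 Pparg-/-epi mice Cd55 lay below every WT mouse, and the sixth, replicate 12, lay just above the 2 lowest WT mice. Cd55 fell as well, at a log2 fold change of -1.19 (SE 0.23, 95% interval -1.69 to -0.68, adjusted p = 0.00508). In female mice the groups were apart, with 86.3 to 182 CPM in WT and 40.9 to 59.9 CPM in Pparg-/-epi mice and a log2 fold change of -1.45 (adjusted p = 0.0251). In male mice they met, with 86.7 to 156 CPM and 65.4 to 88.5 CPM and a log2 fold change of -0.79 (adjusted p = 0.324), and the difference between the sexes, male minus female, did not pass the test (0.67, SE 0.42, adjusted p = 0.895). Within the earlier breeding numbers the log2 fold change was -0.80 (adjusted p = 0.135) and within the later ones -1.06 (adjusted p = 0.0206), and the groups were apart in both. Without the 3 Pparg-/-epi mice of breeding numbers 192 and 195, an alternative added after the data had been seen, it was -0.90 (adjusted p = 0.0816). Of the stretches of 75 bases in the Cd55 transcripts, 6.13% are shared with its near copy Cd55b or with Gm16083, a gene model that overlaps Cd55 on the other strand.

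The classical pathway members varied widely among WT mice. C1ra encodes the protease C1r and lies on chromosome 6 from 124512621 to 124523440. In WT mice C1ra was 1.07 CPM at the lowest, 4.51 at the median and 37.7 at the highest, and in Pparg-/-epi mice 8.82, 21.8 and 36.9 CPM. The highest value of all was that of WT replicate 2, and the groups overlapped. The log2 fold change of C1ra was 1.04 (SE 0.74, 95% interval -0.55 to 2.63, adjusted p = 0.380). C4b encodes the C4 protein that C1s and the lectin-pathway proteases cleave, and lies on chromosome 17 from 34728381 to 34743897. C4b ran from 4.85 CPM through a median of 21.4 to 78.9 CPM in WT mice and from 16.5 through 39.9 to 62.5 CPM in Pparg-/-epi mice. Here the 2 highest mice were WT replicates 1 and 2, and the Pparg-/-epi values lay inside the WT range. Its log2 fold change was 0.23 (SE 0.57, adjusted p = 0.838). Both genes have near copies. Of the stretches of 75 bases in their transcripts, 42.4% of those of C1ra were also found in C1rb or the gene model Gm18840, and 22.7% of those of C4b in C4a. Reads that mapped to several places were left out by the authors, so the counts of both genes are uncertain.

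C3 encodes the protein on which all pathways converge and lies on chromosome 17 from 57203967 to 57228136, on the minus strand, with 41 merged exons. Its WT values were 4.05 CPM at the lowest, 15.7 at the median and 150 at the highest, and its Pparg-/-epi values 13.8, 54.4 and 99.8 CPM. WT replicate 2 held 69.8% of the summed C3 CPM of the 6 WT mice, with 2826 counts, and the other 5 WT mice had at most 21.9 CPM. The log2 fold change of C3 was 0.62 (SE 0.81, 95% interval -1.12 to 2.37, adjusted p = 0.662). Without WT replicate 2 it was 2.08 (SE 0.58, adjusted p = 0.0235). Within the Pparg-/-epi group C3 also split, with 85.0 to 99.8 CPM in replicates 7, 8 and 9 and 13.8 to 23.7 CPM in replicates 10, 11 and 12. Without the mice of breeding numbers 192 and 195, which are replicates 7 to 9, the log2 fold change of C3 was -0.89.

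Cfb and Cfp belong to the alternative pathway. Cfb encodes factor B, the protease part of the alternative C3 convertase, and lies on chromosome 17 from 34856374 to 34862514. WT mice had 1.64 CPM of Cfb at the lowest, a median of 2.78 and 17.5 at the highest. Pparg-/-epi mice had 8.23 CPM at the lowest, a median of 16 and 29.3 at the highest. Of the 6 Pparg-/-epi mice, 3 lay above every WT mouse, and all 6 lay above the 5 WT mice other than replicate 2. Its log2 fold change was 1.71 (SE 0.59, 95% interval 0.44 to 2.97), the highest of the 9 genes, with an adjusted p of 0.0680. The call depended on the test, as the adjusted p was 0.0256 in edgeR's likelihood ratio test and 0.0131 in DESeq2. It was also below 0.05 with RIN (0.0131) or the breeding number block (0.0267) as a covariate, among the later breeding numbers alone (0.0109) and without WT replicate 2 (0.00112). It was not in the other 22 of 28 alternatives. Among them were female mice (0.287), male mice (0.179) and the earlier breeding numbers (log2 fold change 0.99, adjusted p = 0.529), and without breeding numbers 192 and 195 the log2 fold change was 0.70 (adjusted p = 0.609). Of the stretches of 75 bases of Cfb, 69.9% are also part of Gm20547, a GENCODE gene model on the same strand that overlaps it. Here the exons overlap at the same place in the genome, which differs from the near copies of C1ra and C4b. Whether the annotation used for counting held Gm20547 was not checked, so how far the Cfb counts are affected is unknown.

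Cfp encodes properdin, which stabilizes that convertase. It was the steadiest of the activation genes. Cfp ran from 8.06 CPM through a median of 11.7 to 19.95 CPM in WT mice and from 11.7 through 13.8 to 16.01 CPM in Pparg-/-epi mice, so that every Pparg-/-epi value lay inside the WT range. The log2 fold change was 0.11 (SE 0.20, adjusted p = 0.753), with a 95% interval from -0.31 to 0.54 that lies inside the limits of an altered gene. The coefficient of variation between Pparg-/-epi mice was 10.8% for Cfp and 70.9% for C3.

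The receptors for the fragments C3a and C5a were the least abundant of the 9 genes. C3ar1 encodes the C3a receptor, found on myeloid cells, and lies on chromosome 6 from 122847140 to 122856157. In WT mice C3ar1 was 0.315 CPM at the lowest, 1.98 at the median and 7.01 at the highest, with 5 to 132 counts. In Pparg-/-epi mice it was 4.57 CPM at the lowest, 7.89 at the median and 11.7 at the highest, with 55 to 193 counts. As for Cfb, 3 Pparg-/-epi mice lay above every WT mouse and all 6 lay above the 5 WT mice other than replicate 2. The log2 fold change of C3ar1 was 1.61 (SE 0.60, 95% interval 0.32 to 2.90, adjusted p = 0.0894). The adjusted p was 0.0480 in the likelihood ratio test, 0.0302 in DESeq2, 0.0464 with RIN as a covariate and 0.0114 without WT replicate 2, the 4 of 27 alternatives in which C3ar1 was altered. It was 0.0530 with the breeding number block and 0.128 with sex as a covariate. Among the later breeding numbers the log2 fold change was 2.29 (adjusted p = 0.0793), among the earlier ones 0.77 (0.471), and without breeding numbers 192 and 195 it was 1.02 (0.491). C5ar1, which encodes the C5a receptor, lies on chromosome 7 from 16246743 to 16259540. It was read 2 to 45 times in WT and 9 to 31 times in Pparg-/-epi mice, or 0.126, 0.589 and 2.39 CPM and 0.749, 1.36 and 1.76 CPM as lowest, median and highest. At these counts the precision is low. The lowest WT mouse was below the 3 counts taken as the limit of detection. The log2 fold change of C5ar1 was 0.64 (SE 0.51, 95% interval -0.46 to 1.74, adjusted p = 0.443).

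**Figure D2:**
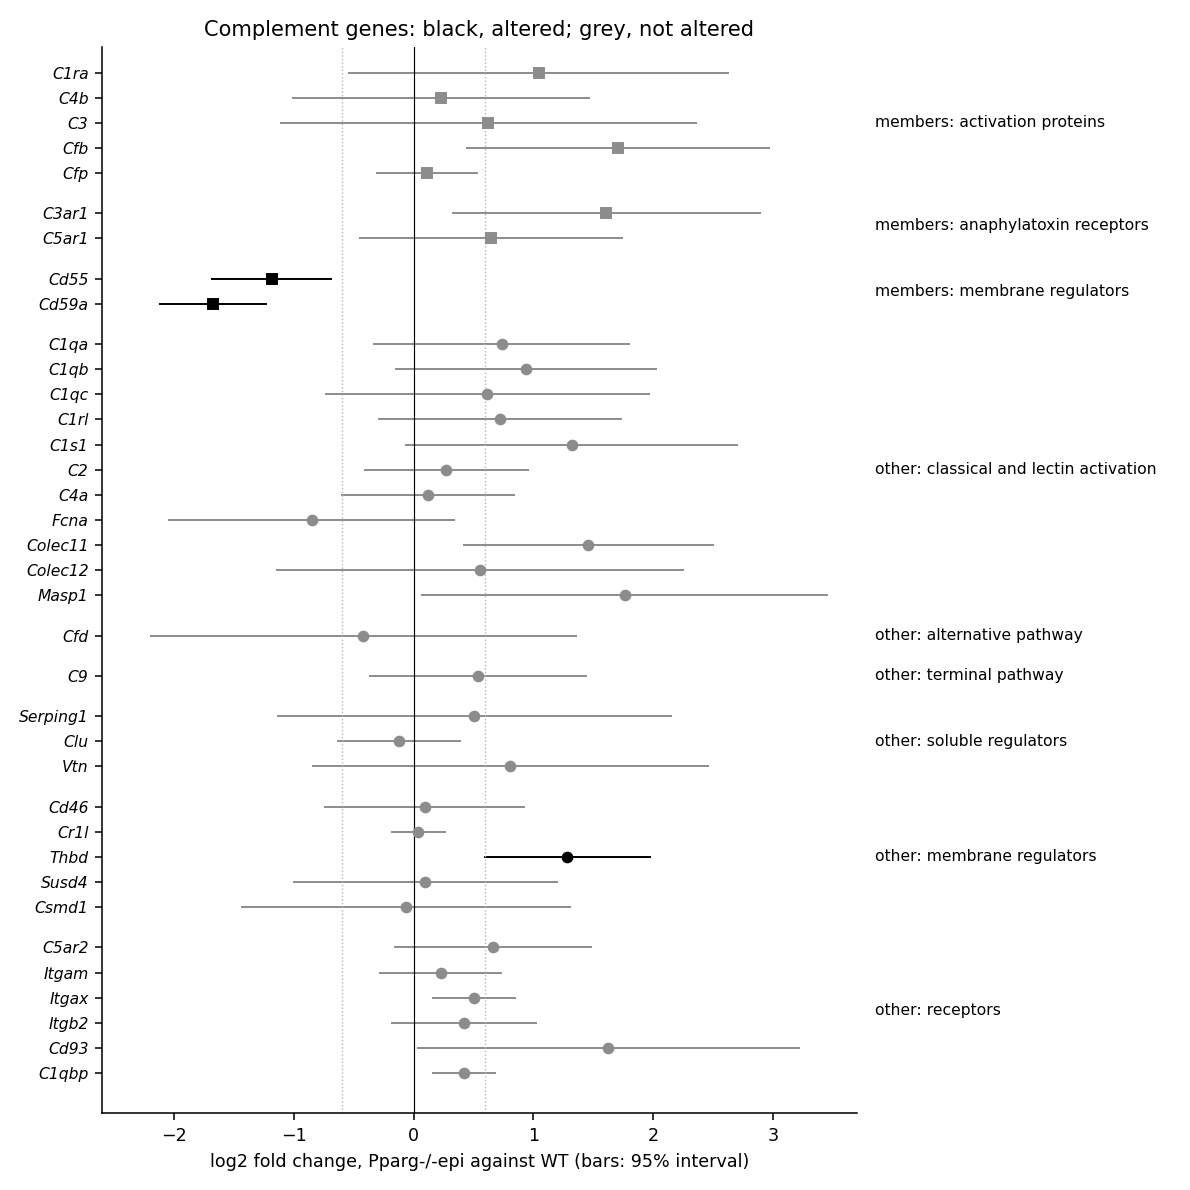
Log2 fold change in Pparg-/-epi against WT mice, with 95% intervals, for the 9 complement genes (squares) and 27 other genes of the pathway (circles), grouped by role. Black marks altered genes, which are Cd55 and Cd59a on the lower side and Thbd on the higher side, and dotted lines mark log2 fold changes of -0.6 and 0.6.

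The calls of C1ra, C3, Cfb, C3ar1 and C5ar1 changed when WT replicate 2 was left out. For C1ra, C3 and C5ar1 this was the only alternative that changed the call. Cfb and C3ar1 were also altered in some settings that kept this mouse. WT replicate 2 was singled out by its high values in these same 5 genes, so leaving it out raises their log2 fold changes by construction. Its RIN of 8.6 was the highest of the WT mice. The adjusted p given here describe how the calls depend on 1 mouse and are no support for a rise. Without WT replicate 2, 7 of the 9 complement genes were altered, 5 higher and 2 lower. Over all genes 15.5% were then altered and 8.97% higher. The 5 that then rose were C1ra (log2 fold change 2.09, adjusted p = 0.0285), C3 (2.08, 0.0235), Cfb (2.61, 0.00112), C3ar1 (2.23, 0.0114) and C5ar1 (1.34, 0.0307). C4b (0.55) and Cfp (0.28) still did not pass the test. Both regulators stayed lower without it, Cd55 with a log2 fold change of -1.30 and Cd59a with -1.81. The groups then did not overlap in Cfb, C3ar1 and Cd59a, 3 of the 9 genes, against 13.2% of all genes. Leaving out any other single mouse left the count at 2.

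**Figure D3:**
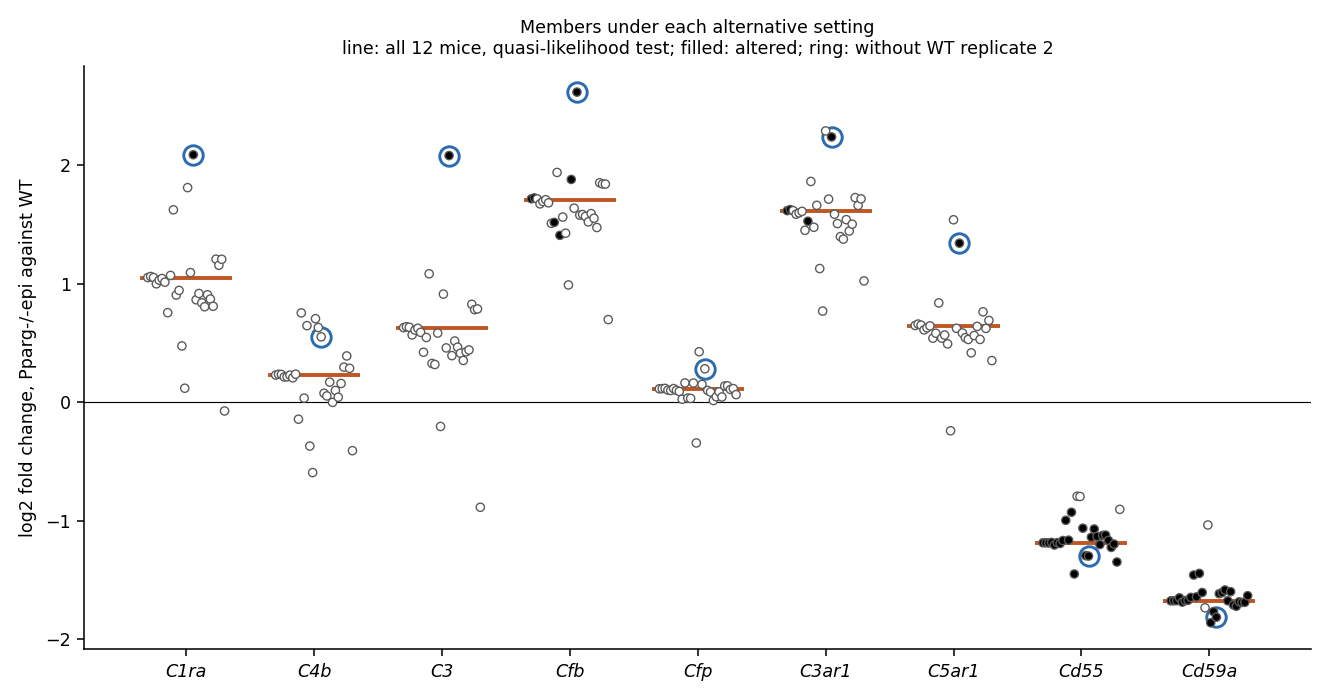
Log2 fold change of each complement gene under every alternative setting (points), beside the value with all 12 mice (orange line). Filled points were altered, open points were not, and blue rings mark the fit without WT replicate 2, where C1ra, C3, Cfb, C3ar1 and C5ar1 turn from open to filled.

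The high libraries were the same ones in several genes. WT replicate 2 and Pparg-/-epi replicates 7, 8 and 9 held the 4 highest values of C1ra, C3, Cfb and C3ar1, and of 11 of the 28 other complement genes, among them C1qa, C1qb, C1qc, C1s1 and Serping1. Over all genes these 4 mice were the highest 4 in 7.51%. Their RIN values were 8.6, 8.6, 8.5 and 7.7. Pparg-/-epi replicate 10 also had a RIN of 7.7, but only 13.8 CPM of C3 and 8.23 CPM of Cfb. Macrophage markers were also high in these 4 mice, although they were not the 4 highest in the summed CPM. WT replicate 1, at 437 CPM, lay above Pparg-/-epi replicate 9, at 431 CPM. The summed CPM of 11 macrophage markers, 3 of them the C1q chains, was 99.7 to 437 CPM in 5 WT mice, 856 CPM in WT replicate 2, 431 to 498 CPM in Pparg-/-epi replicates 7 to 9 and 265 to 293 CPM in the other 3 Pparg-/-epi mice. None of the 11 was altered in edgeR's quasi-likelihood test, 0 of them had an unadjusted p under 0.05, and 0 were altered in the likelihood ratio test or DESeq2. The 7 endothelial markers ran from 5.67 through a median of 23.5 to 120 CPM in WT and from 29.2 through 98.6 to 176 CPM in Pparg-/-epi mice, and 1 of the 7 was higher. All 8 mast cell markers were higher in Pparg-/-epi mice, with sums of 140 to 254 CPM against 20.5 to 97.4 CPM, whereas the 8 keratinocyte markers, 1 of them higher, summed to 32780 to 54847 CPM against 21165 to 47832 CPM, the lowest being WT replicate 2. Of the 7 sebocyte markers listed, 5 were lower, with sums of 20.3 to 58.6 CPM in Pparg-/-epi mice against 25.1 to 1040 CPM in WT mice. Of 10 neutrophil markers named, 2 were in the table, Cxcr2 and Csf3r, and 1 of them was higher. Both had an unadjusted p under 0.05, and both were altered in the likelihood ratio test and in DESeq2. Their sums were 9.7 to 17.0 CPM in Pparg-/-epi mice against 0.944 to 4.92 CPM in WT mice. Langerhans cell markers were higher in 2 of 7, T cell markers lower in 1 of 6 and blood and platelet markers higher in 1 of 2. Of 8 fibroblast, 6 pericyte and smooth muscle and 7 adipocyte markers, 0 were altered in any of the 3 tests and 0 had an unadjusted p under 0.05. Of 6 skeletal muscle markers 0 were altered in the quasi-likelihood test, 3 had an unadjusted p under 0.05, and their sum reached 9431 CPM in WT replicate 5. The part of these cell types in the complement results was not tested.

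After the group means had been taken out, the 5 activation genes and both receptors rose and dropped together over the 12 mice, with correlations of log2 CPM between 0.57 and 0.94 for the 21 pairs. With Cd55 and Cd59a they ran in the opposite direction, at -0.76 to -0.49 over 14 pairs, and Cd55 and Cd59a correlated with each other at 0.74. Correlations with the macrophage marker sum were 0.84 to 0.97 for the activation genes and receptors and -0.76 and -0.69 for Cd59a and Cd55. With RIN they were 0.54 to 0.80 and -0.68 and -0.64. Some other lists gave correlations of like size. The endothelial sum was at 0.57 to 0.88 with the activation genes and receptors and at -0.76 with Cd55, the fibroblast sum at 0.91 with C4b, and the pericyte and smooth muscle sum at -0.87 with Cd55. These values describe 12 libraries that differ in depth and RIN, WT replicate 2 among them, with every gene of a mouse read from the same library. Cd55 and Cd59a remained altered with RIN as a covariate, with log2 fold changes of -0.996 (adjusted p = 0.00633) and -1.46 (adjusted p = 0.000479).

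**Figure D4:**
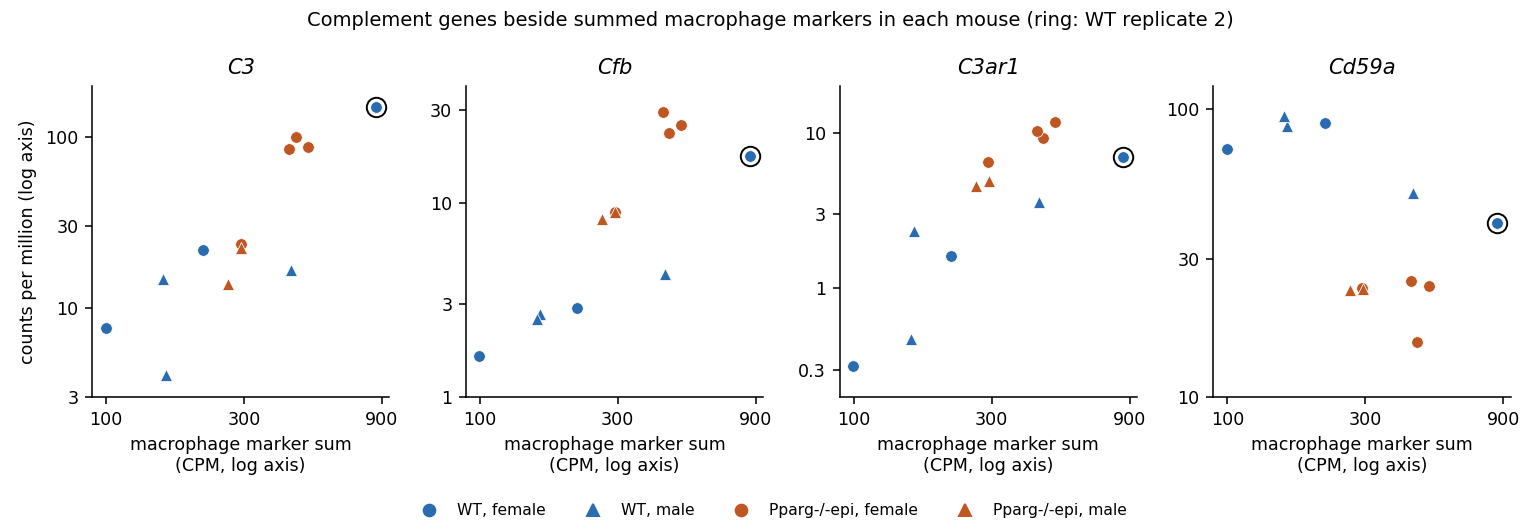
CPM of C3, Cfb, C3ar1 and Cd59a in each mouse (vertical, log axis) beside the summed CPM of 11 macrophage markers (horizontal, log axis). Circles are female and triangles male mice, and the ring marks WT replicate 2, the mouse with the highest marker sum (856 CPM). Cd59a of Pparg-/-epi mice lies between 15.6 and 25.2 CPM at marker sums from 265 to 498 CPM. Among WT mice Cd59a is lowest in replicates 2 (40.1 CPM) and 1 (51.2 CPM), which have the highest WT sums. The part of macrophages was not tested.

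Levels were compared between genes as CPM per kilobase of gene length. The full length was used although reads that mapped to several places were left out. The levels of C1ra and C4b, with 42.4% and 22.7% of their stretches shared, may therefore be too low in this order. In WT mice Cd55 was highest, with 51.96 ± 15.5 (SD, n = 6), followed by Cd59a with 38.8 ± 11.9, and these neighbours were within 1 SD of each other. Both means stood above those of the remaining 7 genes beyond 1 SD, although C3 was above Cd59a per kilobase in WT replicate 2. Cfp had 8.27 ± 2.79, C3 6.97 ± 10.9, C4b 6.46 ± 5.89, C1ra 3.81 ± 5.06, Cfb 1.91 ± 2.20, C3ar1 0.594 ± 0.580 and C5ar1 0.324 ± 0.310, and no neighbours among these differed beyond their spread. In Pparg-/-epi mice Cd55 had the highest mean with 22.9 ± 7.09, although its spread overlapped that of C3 and C3 was above Cd55 in replicates 7 and 8, and Cd59a with 12.2 ± 1.91 was within the spread of C3 with 10.8 ± 7.65. Below these Cfp had 8.96 ± 0.968, C1ra 7.91 ± 4.69, C4b 7.58 ± 3.19 and Cfb 6.29 ± 3.48, each within the spread of its neighbours in this order. C3ar1 with 1.83 ± 0.688 and C5ar1 with 0.516 ± 0.142 were apart from Cfb and from each other. Among all genes the mean level of Cd55 was at the percentile 86.0 and that of Cd59a at 79.2, whereas C3ar1 was at 15.5 and C5ar1 at 5.39.

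**Figure D5:**
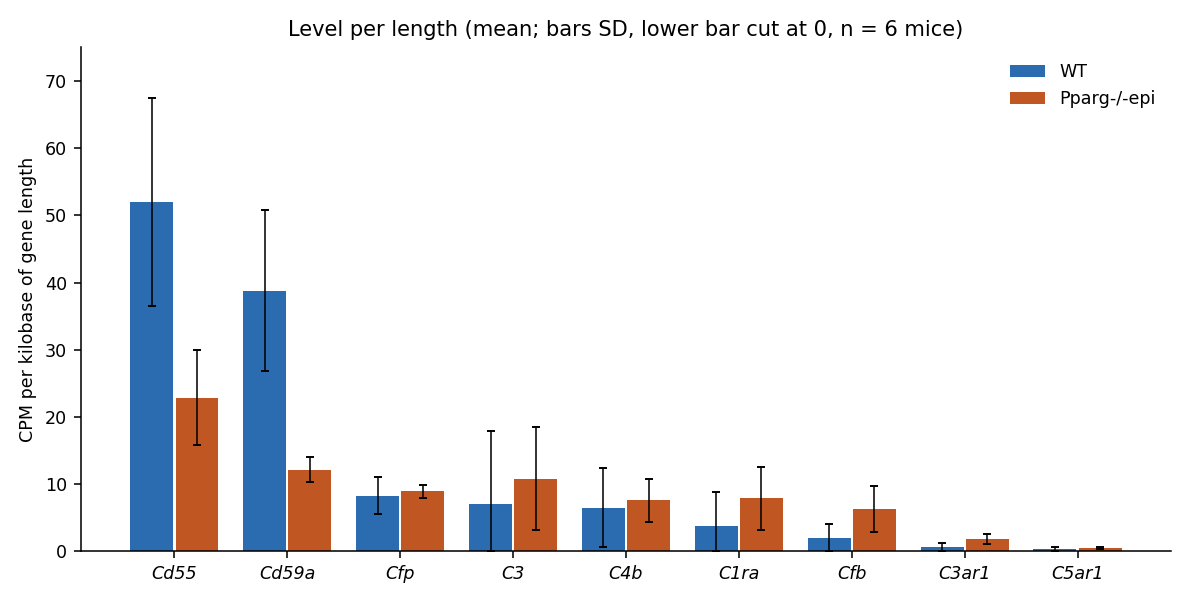
Level of each complement gene as CPM per kilobase of gene length, in the order of the WT means. Bars are means and lines SD over 6 mice per group, cut at 0 where the SD exceeds the mean; Cd55 goes from 51.96 in WT to 22.9 in Pparg-/-epi mice and Cd59a from 38.8 to 12.2.

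Of 50 other named complement genes, 28 were in the table and 1 was altered, on the higher side, against 10.3% of all genes altered and 5.19% higher. Of the 28, 24 had a log2 fold change above 0, with a median of 0.52, and over all genes 48.5% did. The altered gene was Thbd, which encodes thrombomodulin, an endothelial and keratinocyte protein that restrains coagulation and aids the inactivation of C3b. Thbd was 6.5 CPM at the lowest, 11.7 at the median and 29.9 at the highest in WT mice and 27.6, 32.9 and 45.7 CPM in Pparg-/-epi mice. The WT value that reached into the Pparg-/-epi range was again that of replicate 2. The log2 fold change of Thbd was 1.28 (SE 0.32, adjusted p = 0.0176). C1qbp, a mostly mitochondrial protein that can bind C1q, passed the adjusted p (0.0358) but not the fold, with a log2 fold change of 0.42.

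Among the other genes, the 11 of the classical and lectin pathways had log2 fold changes from -0.85 for Fcna to 1.76 for Masp1, a serine protease of the lectin pathway (adjusted p = 0.154). The C1q chains had log2 fold changes of 0.74 (C1qa), 0.94 (C1qb) and 0.62 (C1qc), with adjusted p of 0.356, 0.241 and 0.564, and C1s1, which encodes the partner protease of C1r, had 1.32 (adjusted p = 0.194). Colec11, a soluble lectin, had a log2 fold change of 1.46 at an adjusted p of 0.0597. Cfd, the protease that cleaves factor B and a product of adipocytes, had -0.42 (adjusted p = 0.784) with 1.28 to 66.9 CPM in WT mice. The soluble regulators gave no call, with 0.51 for Serping1, which encodes the C1 inhibitor, and -0.12 for Clu. None of the 5 other membrane regulators was lower past the test. Cr1l, which encodes the rodent regulator Crry, averaged 42.8 CPM in WT against 43.9 CPM in Pparg-/-epi mice (log2 fold change 0.04, SE 0.11, adjusted p = 0.845), and Cd46 had 0.09 (SE 0.39, adjusted p = 0.908). The 95% interval of Cr1l did not reach the log2 fold changes of Cd55 and Cd59a, and the difference between the genes was not tested. The integrin chains of the C3 fragment receptors had log2 fold changes of 0.23 (Itgam), 0.50 (Itgax, adjusted p = 0.0526) and 0.42 (Itgb2). C1s1 shares 24.8% of its stretches of 75 bases with C1s2 and the gene model Gm16567, and C4a 19.7% with C4b, which makes these values uncertain.

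None of the 9 complement genes or the 28 others showed a genotype effect that differed by sex or by breeding number past the adjusted p. With sex, 0 of 14533 genes passed and 741 had an unadjusted p under 0.05. With the breeding number block, added after the data had been seen, 1 gene passed, none of the 9, and 1043 had an unadjusted p under 0.05. Cd59a (unadjusted p = 0.0131), Cfp (0.0199) and C5ar1 (0.0468) were among the latter, with adjusted p of 0.632, 0.633 and 0.687. So were C1qc (0.00315), C1qa (0.00695), C1qb (0.0139), Thbd (0.0342) and Cd93 (0.0406) of the other complement genes, with adjusted p from 0.540 to 0.681.

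The genes whose log2 CPM was most like that of a member over the 12 mice, the 2 highest Pearson correlations for each, were Tnfrsf21 and Trim2 for Cd55 (both 0.98) and Cryl1 (0.98) and Ogfrl1 (0.98) for Cd59a. For the activation genes they were Nid1 and Pirb for C1ra (both 0.98), Selm (0.98) and Ltbp1 (0.97) for C4b, Gfpt2 (0.98) and Swap70 (0.97) for C3, Runx1 and Slc43a2 for Cfb (both 0.98) and Tbx18 and Dok2 for Cfp (both 0.91). For the receptors they were Tnfrsf1b and Ccnyl1 for C3ar1 (both 0.97) and Sema6b and Pld4 for C5ar1 (both 0.96). These correlations are over libraries that include WT replicate 2 and carry no test.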

How the data were processed

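Scraped epidermis of 12 mice was sequenced from poly(A)-selected libraries. Alignment by the authors used STAR (2.5.2b in the submitters' processing notes) and mm10. Gene counts came from featureCounts of Subread 1.5.1 and hold only reads with 1 confident position in the genome. The deposited table holds these counts without normalization, and the strand setting of the counting is not given in the sources used here. It lists 14533 genes after 2800 blank rows were dropped, all of them above 0.5 CPM in 6 or more mice, and was not filtered further. Total counts per library ranged from 10120840 to 18851255.

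Counts were normalized with TMM factors and compared with the quasi-likelihood test of edgeR 4.0.16, run in R 4.3.3. Genotype was the sole term of the model. The likelihood ratio test, which the methods of the study name, and DESeq2 1.42.0 were alternatives, as were other scalings, filters and covariates, single sexes, single breeding number blocks, leaving out each mouse, and leaving out breeding numbers 192 and 195. Each library came from a separate mouse, so p-values measure the spread between animals. Mice that share a breeding number were treated as independent in this model. Standard errors follow from the log2 fold change and the F statistic. CPM values are TMM-scaled, and log2 CPM used a prior count of 2. Values per length use the gene length that the deposited table gives. The limit of detection was taken as 3 counts. The fitting steps were tested on simulated data. Figures were drawn with matplotlib 3.10.9.

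The named genes were the 9 members, the other complement genes in the table, Pparg, and for each member the 2 genes with the highest correlation. Xist was checked against the labelled sexes. The members, the list of other complement genes and the marker lists were chosen with earlier results of these data known. Of the other complement genes, 1 is counted in the totals but not reported here by itself.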

Additional observations from a re-analysis of the deposited data

Results flagged for a closer look

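In 22 groups of 6 mice, the highest and the lowest CPM were compared with the range of the group, using Dixon's 95% critical value for 6 samples. With independent, normally spread values, chance passes it in about 1 in 20 groups. Here the groups are genes read in the same mice, so repeated marks of 1 library are not independent. In 5 groups a mouse lay farther from the rest than this value allows. In 4 of the 5 the mouse was WT replicate 2, with 37.7 CPM of C1ra against 1.07 to 13.0 CPM in the other WT mice, 150 CPM of C3 against 4.05 to 21.9 CPM, 17.5 CPM of Cfb against 1.64 to 4.28 CPM and 2.39 CPM of C5ar1 against 0.126 to 0.831 CPM. The last was Pparg-/-epi replicate 7, with 15.6 CPM of Cd59a against 23.5 to 25.2 CPM in the other Pparg-/-epi mice, on the side away from WT.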

How the results depend on the processing

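Over all genes, 1493 were altered, and this count moved to 651 in female mice, 18 in male mice, 131 among the earlier breeding numbers and 559 without breeding numbers 192 and 195. Of the 14533 genes, 1712 were altered in the likelihood ratio test, 1787 in DESeq2, 1411 with RIN as a covariate and 1086 among the later breeding numbers. The 2 altered complement members became 4 with the likelihood ratio test, 4 with DESeq2 and 4 with RIN as a covariate, each time with Cfb and C3ar1 added. They became 0 in male mice (3 at an unadjusted p under 0.05), 0 among the earlier breeding numbers (2) and 1 without breeding numbers 192 and 195. The share of all genes at an unadjusted p under 0.05 was not counted in these settings. The 1 altered gene among the other complement genes became 2 with the likelihood ratio test or DESeq2, through Colec11, 4 among the later breeding numbers, and 0 in female mice, male mice, the earlier breeding numbers and without breeding numbers 192 and 195. Leaving out 1 mouse at a time gave 1116 to 2249 genes, 2 to 7 members and 1 to 9 other complement genes, each highest without WT replicate 2. The 2 other complement genes without Pparg-/-epi replicate 12 were Colec11 and Thbd. Fewer mice enter the single-sex and breeding number settings, and the cause of the other moves was not tested.

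Members with no call changed sign in some settings. C4b had log2 fold changes of -0.14 with RIN as a covariate, -0.37 in male mice, -0.59 among the earlier breeding numbers and -0.41 without breeding numbers 192 and 195. With 1 mouse left out it ran from -0.0018, without WT replicate 6, to 0.629, without WT replicate 1. Among the earlier breeding numbers C3 had -0.20, Cfp -0.34 and C5ar1 -0.24, and without breeding numbers 192 and 195 C3 had -0.89 and C1ra -0.074. Cd59a was altered in 26 and Cd55 in 25 of 28 alternatives, and both were lower in all 28. The mean filter of 100 counts dropped C3ar1 and C5ar1. TMM against total counts moved no level per length by more than 1 SD. No paired analysis was possible because the replicate numbers run from 1 to 6 for WT and from 7 to 12 for Pparg-/-epi libraries and are not shared between the groups, and breeding number 222 alone holds a mouse of each group, which is 1 pair. Low counts limit C5ar1 most, with 2 to 45 counts per mouse.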
